A study of Ambystoma mexicanum with 12 samples.

Results

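The assembly of the axolotl blastema transcriptome holds loci that were built from reads alone, carry no reference gene, and nevertheless lie on the same strand of the same scaffold as a reference gene whose span they overlap. These unannotated same-strand loci, and the overlapped gene, here called the host, are described below. A locus was taken when none of its transcripts carried a reference name and its transcript span overlapped the span of at least 1 reference gene on the same strand. Of 14011 unannotated loci, 305 met this rule, and 236 of them also had at least 10 counts in at least 6 libraries, against 10646 unannotated loci and 25879 genes of any kind that passed the same count minimum. The 69 loci removed had a median level of 0.0478 CPM (counts scaled by library size and TMM factor), and only 3 of them came close to the minimum, at 0.233 to 0.257 CPM, and the lowest of the 7 loci that passed it most narrowly was at 0.285 CPM. A further 409 unannotated loci, 260 of which passed the count minimum, overlap a reference gene but carry no strand and were left out. The 236 loci have 220 distinct hosts.

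The libraries came from albino axolotls (Ambystoma mexicanum) with forelimbs cut through the forearm, which spent 5 days in 25 nM Am580 or an equal volume of its solvent DMSO, starting 24 h after amputation, and whose right blastemas were taken 24 h after treatment and stripped of epidermis. Each of the 12 libraries, 6 per treatment, holds polyadenylated RNA of the mesenchyme of 1 blastema. The left forelimbs of the same animals were left to regenerate and were scored for duplication, which the sequenced right blastemas could not be. The 6 Am580 animals with the most duplicated left limbs were sequenced, while no left limb of a DMSO animal was duplicated. Selection by outcome and treatment therefore cannot be told apart. The age of the animals is not given in the labels, and no genotype beyond the albino strain is named.

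Am580 is a synthetic agonist selective for retinoic acid receptor alpha, a nuclear receptor that regulates transcription together with its partner RXR. RNA on a gene's own strand but outside its annotated exons can have several sources, among them introns of unspliced precursor RNA, exons and untranslated regions that the annotation lacks, transcripts that run past a neighbouring gene, and independent transcripts such as long noncoding RNAs. RNA that is part of the host's transcript is bound to the host's promoter, whereas an independent transcript has its own, and axolotl introns are known for their great length.

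Total counts were 34279044 to 43793138 in the Am580 libraries and 27226012 to 40794002 in the DMSO libraries. Where a locus had no count, its level could reach 3 counts or 0.0637 to 0.111 CPM, a limit that covers counting error only. Summed over a fixed marker list, 4 of 7 symbols of macrophages and osteoclasts were found and reached 476 to 816 CPM with Am580 and 1937 to 2981 CPM with DMSO, and by edgeR's test CSF1R, CTSK and ACP5 fell while MPEG1 was not called. The blastema mesenchyme list (9 of 11 symbols found) summed to 12372 to 18914 CPM with Am580 and 13796 to 22616 CPM with DMSO, where COL3A1, VIM and FN1 had the highest means. Of the 9, FN1 rose (log2 fold change 0.68), VIM (-0.48), MSX1 (-1.91) and MSX2 (-1.95) fell by edgeR's test, and MSX1 averaged only 0.226 CPM with Am580 and 0.858 CPM with DMSO. The epidermis list (5 of 8 found) summed to 8.82 to 27.2 CPM with Am580 and 17.1 to 116 CPM with DMSO, and 1 of the 5, PKP1, fell (log2 fold change -3.26, edgeR). The 116 CPM belong to DMSO replicate 1 alone, and the next highest DMSO sum was 34.2 CPM, in replicate 5. The muscle list (2 of 5 found) summed to 1690 to 9381 CPM with Am580 and 2660 to 8789 CPM with DMSO, and the 1 erythroid marker of 3 that was found, ALAS2, reached 15.9 to 65.6 CPM with Am580 and 9.72 to 83.4 CPM with DMSO. In bulk RNA, fewer cells of a type and less RNA per cell cannot be told apart.

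The loci did not all lie within their hosts. The span of 139 loci was inside the host span, 62 loci spanned the whole host, and 35 were staggered, 19 of them reaching beyond the host's start and 16 beyond its end. Of the 139 inside, 132 sat in a single intron and 7 had a host exon between their own exons. Exons of locus and host shared bases in only 3 of the 236 cases: MSTRG.11765, MSTRG.14032 (host EPHA8, an ephrin receptor) and MSTRG.21083 (host dpm1, a subunit of dolichol-phosphate mannose synthase). These 3, named after their values were seen, shared 17 to 2819 bases, and none of them was called. In addition, 53 loci overlapped a reference gene on the opposite strand, and 8 overlapped 2 hosts, of which the one with the larger overlap was used.

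Most of these loci, all of which carry a strand, were spliced. The exons of overlapping loci without a strand were not examined. A transcript of more than 1 exon was assembled for 174 loci, with up to 23 exons, and 62 had a single exon. Exon length ran from 213 to 15802 bases with a median of 1093 bases. The 132 intronic loci lay in introns with a median length of 79.8 kb, 27 of them in the first intron, 76 in a middle intron and 29 in the last of several. Of these 132, 28 began within 1 kb after a host exon and 10 ended within 1 kb before the next one. Some placements rest on very short host exons. The first exon of CCDC86 ends 0.001 kb from the host's start and that of zgc:153867 0.002 kb from it. In both hosts the next exon begins past the end of the locus. The only exon of LOC102351091 within the span of MSTRG.1878 runs from 883.781 to 883.796 kb. The only exon of FBF1 within the span of MSTRG.9444 runs from 1379.333 to 1379.36 kb. The exon after the locus runs from 316.212 to 316.243 kb in MATK and from 186.7 to 186.722 kb in ST6GAL2. The exon of MSTRG.18000 within the span of MSTRG.18001 runs from 45.404 to 45.415 kb. The plot of 6 locus and host maps shows some of these arrangements.

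**Figure D1:**
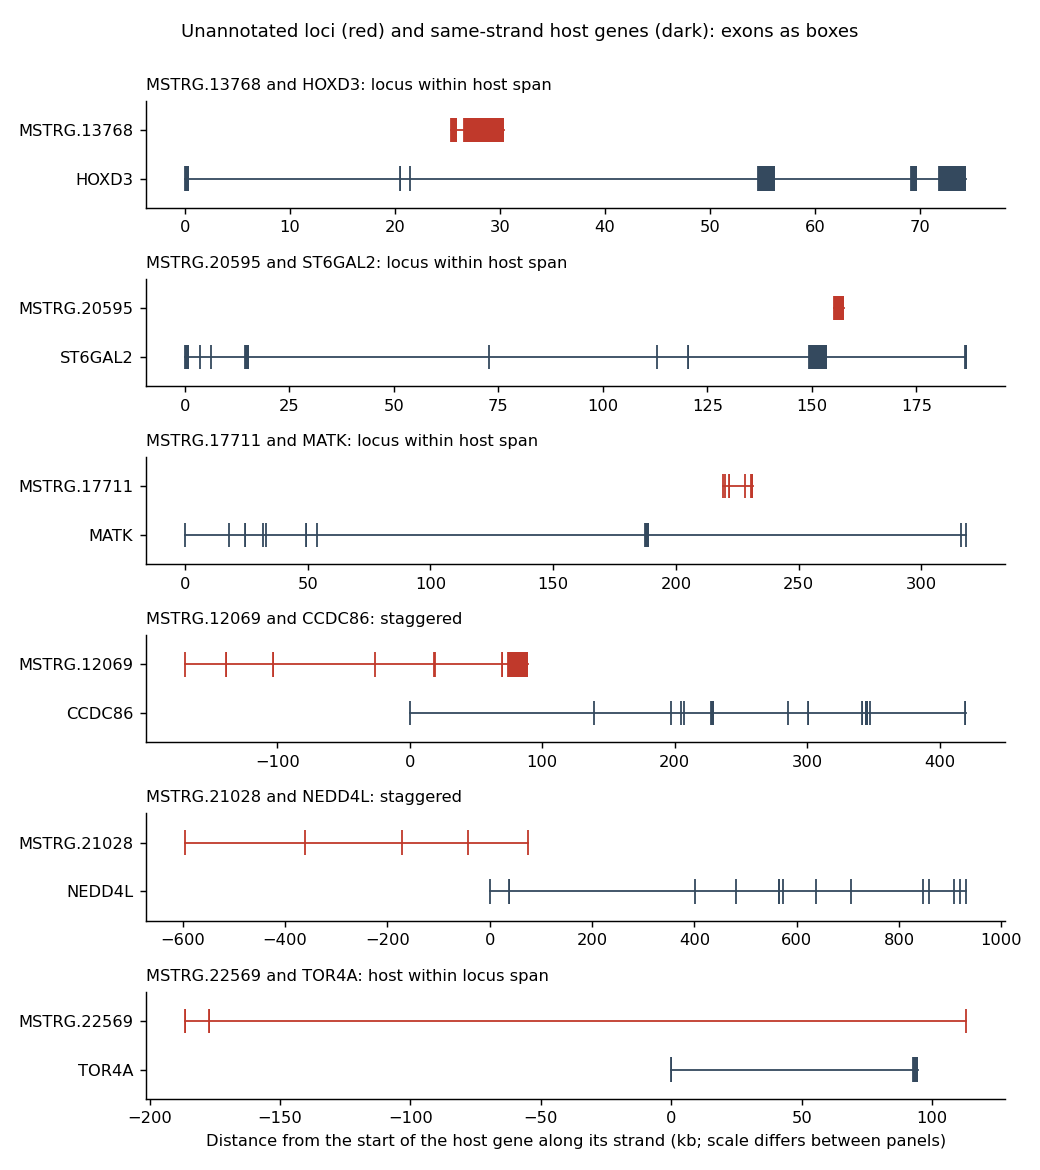
Exon maps of 6 unannotated loci (red, upper row of each panel) and their hosts (dark, lower row), with distance in kb along the host's strand from its start on the horizontal axis and boxes for exons. The loci in HOXD3, ST6GAL2 and MATK sit in 1 intron, those at CCDC86 and NEDD4L begin before the host's start, and that at TOR4A spans the host.

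The level of a locus bore little relation to that of its host. The host itself passed the count minimum for 158 loci, and in those pairs the locus had a median of 83.4% of the host's level per kb of exon (quartiles 22.8% and 191%). The median was 83.7% in Am580 libraries and 78.8% in DMSO libraries. Of the 158, 74 loci stood above their host per kb, 11 of them at least 10 times, and 22 stood at least 10 times below it. Across the 158 pairs, which share libraries and in part hosts, the log2 level per kb had a Pearson r of 0.16 and a Spearman rho of 0.22. The position in the host made no visible difference to this share. With the host span cut into 3 equal parts from start to end, intronic loci had medians of 73.9% (38 loci), 76.1% (25 loci) and 74.2% (53 loci) of the host's level per kb. Single-exon intronic loci had a median of 85.7% and spliced intronic loci one of 51.6%.

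**Figure D2:**
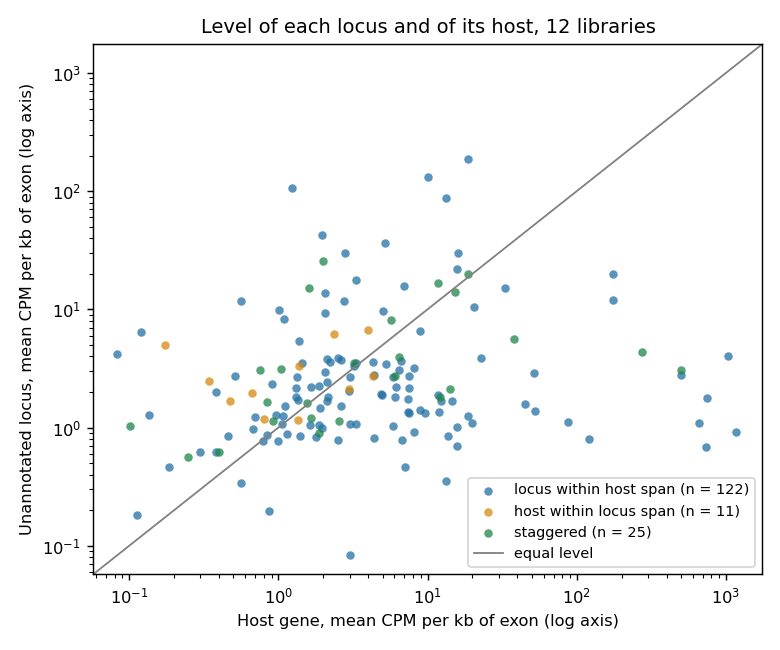
Mean CPM per kb of exon over 12 libraries for each of 158 unannotated loci (vertical, log axis) and its host (horizontal, log axis), coloured by arrangement, with the line of equal level. Points scatter widely on both sides of the line, with 74 of 158 above it.

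The other 78 loci had a host below the count minimum. Those 74 distinct hosts averaged at most 0.323 CPM and never had more than 68 counts in a library, and 36 of them had no count in any library. Their loci were not low, with a median of 3.48 CPM, against 3.10 CPM for all 236 loci and 5.20 CPM for all genes tested. In 51 of the 78 the host lay within the span of the locus, and the median span of hosts so enclosed was 1.26 kb. Not every host, above or below the count minimum, carries a gene symbol. Of the 236 loci, 8 had a host with the name of a retroelement (reverse or LINE-1), 78 a host known by a LOC number only and 16 a host with no name.

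The 6 loci with the highest levels were MSTRG.12069, MSTRG.784, MSTRG.18774, MSTRG.21023, MSTRG.7804 and MSTRG.8274, and together they held 37.5% of all counts of the 236 loci. MSTRG.784 spanned 22.1 kb with 6 exons around a host of 1 exon that carries no name. It had 193 to 254 CPM with Am580 (median 208) and 157 to 230 CPM with DMSO (median 219), while the host stayed at or below 0.405 CPM in every library. The treatments overlapped, with a log2 fold change of 0.07 ± 0.10 (SE; edgeR's quasi-likelihood test, adjusted p = 0.766).

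MSTRG.18774, a 2-exon locus in the last of 11 introns of SGTA, a co-chaperone, stood 10.1 times above its host per kb. It had 164 to 232 CPM with Am580 (median 186) and 133 to 198 CPM with DMSO (median 153), and the treatments overlapped (log2 fold change 0.24 ± 0.11, edgeR adjusted p = 0.164, 0.0452 without DMSO replicate 1, and 0.0251 with library size alone as the scale). MSTRG.7804, in the last of 16 introns of Sema7a, a membrane-anchored semaphorin, reached 186% of its host's level per kb. It had 80.6 to 113 CPM with Am580 (median 89.6) and 94.3 to 110 CPM with DMSO (median 106), again with overlap (log2 fold change -0.20 ± 0.09, edgeR adjusted p = 0.159, and 0.025 without Am580 replicate 6).

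The most variable of the 6 was MSTRG.8274, which spans a host named larval that had at most 1 count in a library. It ranged over 45.1 to 163 CPM with Am580 (median 83.7) and 5.55 to 179 CPM with DMSO (median 81.3), and its log2 fold change of 0.07 ± 0.61 (edgeR adjusted p = 0.96) lay far within that spread.

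Treatment changed 28 of the 236 loci (11.9%), by edgeR's quasi-likelihood test with Benjamini-Hochberg adjustment over all 25879 genes and a threshold of 0.05, against 14.1% of all genes tested. Of these, 15 rose (6.36%, against 6.93% of all genes) and 13 fell (5.51%, against 7.21%). The shares were thus close to those of all genes. In 17 loci the 6 Am580 libraries and the 6 DMSO libraries did not overlap (7.20%, against 8.6% of all genes), and those 17 were all among the 28. At an unadjusted p under 0.05 there were 61 loci (25.8%, against 25.7% of all genes). The median log2 fold change was 0.02 for the loci and 0.00 for all genes. With library size alone as the scale, 23 loci rose and 11 fell, and with upper-quartile factors 21 rose and 12 fell.

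Of the 28, 20 had a tested host. In 18 of those 20 (90%) the host's log2 fold change had the same sign as the locus, against 100 of all 158 pairs (63.3%), and the host itself was called in 11, always in the direction of the locus. Left out in turn, the 12 libraries gave shares of 75 to 90%, the lowest without Am580 replicate 3. Seen from the host, 31 loci had a called host, 11 of them one that rose and 20 one that fell. The locus was called in 11 of these 31 (35.5%), and in 9 of the 127 loci whose tested host was not called (7.09%). No locus was called against the direction of a called host.

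Across the 158 pairs, the log2 fold changes of locus and host had a Pearson r of 0.71 and a Spearman rho of 0.41. The difference between these values came with a few large falls. Without the 4 loci with the largest change, an alternative chosen after seeing the data, r was 0.47 and rho 0.37. A locus can meet the count minimum through 1 treatment alone, which raises the share of large changes. MSTRG.7261 met it only in the DMSO libraries, with at most 9 counts in an Am580 library. With at least 10 counts required in all 12 libraries, r was 0.496. For the 126 loci that also had a tested reference gene beside them on the scaffold, at a median gap of 446 kb, r was 0.67 with the host and 0.03 with the neighbour, and rho was 0.38 and 0.12. The sign was shared with the host in 77 and with the neighbour in 66 of the 126. All of these points share the same 12 libraries.

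**Figure D3:**
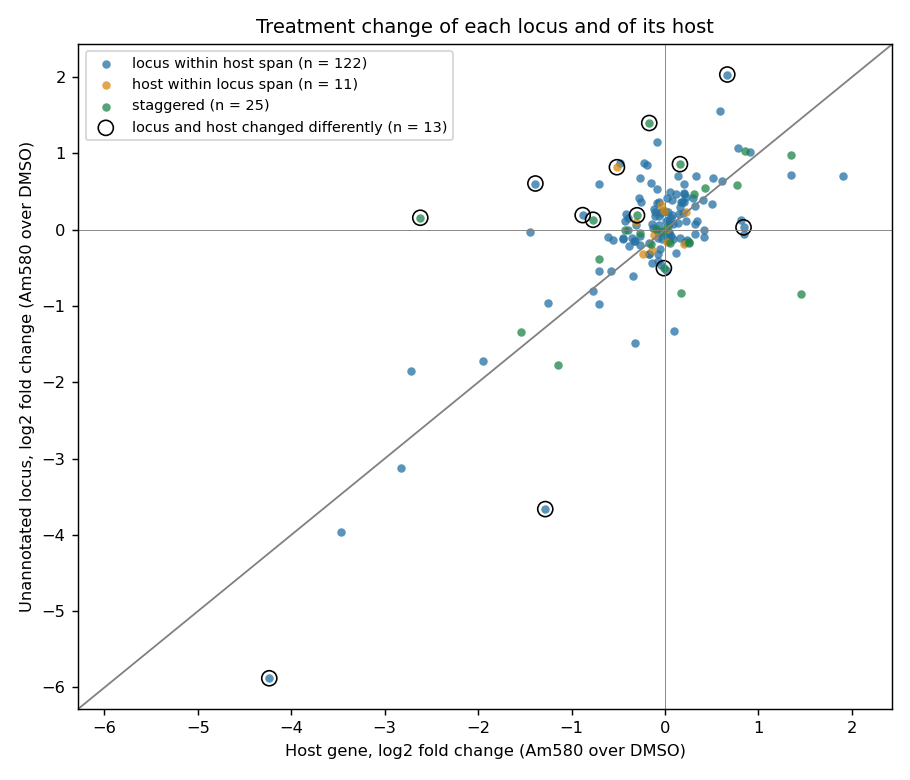
Log2 fold change (Am580 over DMSO) of each of 158 unannotated loci (vertical) and of its host (horizontal), coloured by arrangement, with the line of equal change. Circles mark the 13 pairs in which locus and host differed by the paired test. The 4 lowest points lie at or below -3.12 on the vertical axis.

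The relation differed in size between arrangements. For 122 loci inside a host r was 0.78 and rho 0.46, for 25 staggered loci r was 0.36 and rho 0.29, and for 11 loci that span a tested host r was -0.39 and rho -0.09. Among intronic loci, r was 0.52 and rho 0.39 for 54 with a single exon and r was 0.82 and rho 0.44 for 62 spliced ones. The 4 loci with the largest change, MSTRG.7261, MSTRG.27862, MSTRG.18001 and MSTRG.17711, all lie inside a host. MSTRG.7261 and MSTRG.17711 are among the 62, and r weighs such loci more than rho does. These differences were not tested. Within a treatment, the typical locus followed its host little from library to library, but pairs varied widely. The correlation of their deviations from the treatment means had a median of 0.16 over the 158 pairs. Among the 126 loci with a neighbour the median was 0.17 with the host and 0.13 with the neighbour. It was above 0.5 in 29.1% of the 158 pairs. Among the 126 it was so in 27.8% with the host and in 23.0% with the neighbour. In the named pairs it ran from -0.59 at MSTRG.12069 to 0.92 at MSTRG.7261.

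The largest fall of any locus took place together with a fall of its host. MSTRG.7261 (AMEXG_0030001544:9604405-9613461, minus strand, 3 exons in intron 2 of the host) had 0, 0, 0.0253, 0.104, 0 and 0.219 CPM in Am580 replicates 1 to 6, against 4.19, 3.91, 2.46, 4.45, 4.96 and 2.25 CPM in DMSO replicates 1 to 6. The host LOC101872464 had 5.83 to 32 CPM with Am580 (median 10.2) and 225 to 397 CPM with DMSO (median 245). Neither overlapped between treatments. The fitted log2 fold change was -5.88 ± 0.64 for the locus (edgeR adjusted p = 4.24e-05), a value that depends on the prior count because 3 Am580 libraries held no count, and -4.24 ± 0.41 for the host (edgeR adjusted p = 1.57e-05). Among its top transcripts the paper lists LOC101872464, matched to SLC4A2, at a log2 fold change of -5.88. That is the value found here for the locus and not for the host, and the reason was not examined.

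MATK, a kinase of the CSK family known from blood cells, hosts MSTRG.17711 (AMEXG_0030005363:219103-231448, plus strand), a locus of 5 exons in what the assembly gives as intron 8 of 9. The locus had 0.0915 to 0.56 CPM with Am580 (median 0.197) and 0.681 to 3.52 CPM with DMSO (median 2.39). MATK had 0.355 to 1.44 CPM with Am580 (median 0.557) and 2.98 to 6.60 CPM with DMSO (median 4.70). Both fell without overlap, by 3.12 on the log2 scale for the locus (SE 0.44, edgeR adjusted p = 0.000317) and by 2.83 for MATK (SE 0.33, edgeR adjusted p = 8.03e-05). The difference between them was -0.05 ± 0.27 (limma, adjusted p = 0.949). It ran from -0.34 to 0.13 under the alternatives of the closing section, where the locus had only 3 to 23 counts in an Am580 library.

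A locus inside TREML1, the gene of a receptor of platelets in mammals, was named after its values were seen. MSTRG.27862 had 0 to 5.26 CPM with Am580 (median 1.02) and 0.236 to 52.7 CPM with DMSO (median 24.1), and the treatments overlapped. The log2 fold change was -3.96 ± 1.09 (edgeR adjusted p = 0.0272), and that of TREML1 was -3.47 ± 0.64 (edgeR adjusted p = 0.00231). The macrophage and osteoclast marker sum fell with the same libraries, as given above, and its part in the falls of these 3 pairs was not tested. Nor was its part in the other changes described here.

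ST6GAL2, a sialyltransferase of the Golgi, fell with MSTRG.20595 (AMEXG_0030007540:824997-827397, plus strand), a single exon of 2401 bases in what the assembly gives as intron 8 of 10. The locus had 1.54 to 7.11 CPM with Am580 (median 4.10) and 7.94 to 17.2 CPM with DMSO (median 13.96). ST6GAL2 had 4.13 to 9.07 CPM with Am580 (median 6.07) and 19.0 to 29.9 CPM with DMSO (median 25.4). Neither overlapped between treatments. The log2 fold changes were -1.73 ± 0.31 for the locus (edgeR adjusted p = 0.00185) and -1.95 ± 0.18 for the host (edgeR adjusted p = 1.02e-05).

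NEDD4L, an E3 ubiquitin ligase that acts on ion channels, fell with the staggered locus MSTRG.21028 (AMEXG_0030008011:214132-884322, plus strand), whose 5 exons begin upstream of the host and end within it. The locus had 0.456 to 0.925 CPM with Am580 (median 0.636) and 1.04 to 2.43 CPM with DMSO (median 1.59). NEDD4L had 1.68 to 3.03 CPM with Am580 (median 2.33) and 4.70 to 8.53 CPM with DMSO (median 7.09). The log2 fold changes were -1.35 ± 0.23 for the locus (edgeR adjusted p = 0.00137) and -1.54 ± 0.18 for NEDD4L (edgeR adjusted p = 8.86e-05). The difference between locus and host in this pair was 0.26 ± 0.31 and was not called (limma, adjusted p = 0.723).

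Of the remaining pairs that fell together, MSTRG.13063 at LOC109514941 had 0.257 to 0.90 CPM with Am580 (median 0.556) and 1.03 to 2.36 CPM with DMSO (median 2.14). Its log2 fold change was -1.78 ± 0.28 (edgeR adjusted p = 0.000696) and that of the host -1.14 ± 0.27 (edgeR adjusted p = 0.0106). Locus and host differed by -0.61 ± 0.23, which was not called (limma, adjusted p = 0.166). MSTRG.16569 in RASGEF1B, an exchange factor for Ras-like proteins, and MSTRG.4167 in a host that joins ILK, the integrin-linked kinase, with the selenoprotein gene SELENOM were named after their values were seen. The log2 fold changes were -0.96 and -0.54 for these loci and -1.26 and -0.58 for their hosts, and both loci overlapped between treatments.

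Locus and host rose together in 3 pairs. One is in HOXD3, a homeobox transcription factor of the HOXD cluster. MSTRG.13768 (AMEXG_0030003674:772624-777638, plus strand), 2 exons in intron 3 of 5, had 3.46 to 7.32 CPM with Am580 (median 5.25) and 0.452 to 2.05 CPM with DMSO (median 1.16), with no overlap. HOXD3 had 5.05 to 7.34 CPM with Am580 (median 6.47) and 3.24 to 5.98 CPM with DMSO (median 3.58), with overlap. The locus rose by a log2 fold change of 2.03 ± 0.31 (edgeR adjusted p = 0.000618) and HOXD3 by 0.67 ± 0.17 (edgeR adjusted p = 0.0157). Here the locus rose more than its host, by 1.41 ± 0.25 (limma, adjusted p = 0.00334).

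The second pair is MSTRG.16426 in LOC107197025 as assembled, a 2-exon locus at 2.65% of the host's level per kb. It had 0.763 to 1.67 CPM with Am580 (median 1.36) and 0.154 to 0.649 CPM with DMSO (median 0.478), with a log2 fold change of 1.55 ± 0.30 (edgeR adjusted p = 0.00358). The host's change of 0.59 ± 0.18 (edgeR adjusted p = 0.0448) was not called in 12 of the alternatives, as given in the closing section. Locus and host differed by 0.87 ± 0.27, which was not called (limma, adjusted p = 0.0794). The third, MSTRG.11403 in LOC104635543, was named after its values were seen and had a log2 fold change of 1.07 ± 0.28, against 0.78 ± 0.15 for the host.

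**Figure D4:**
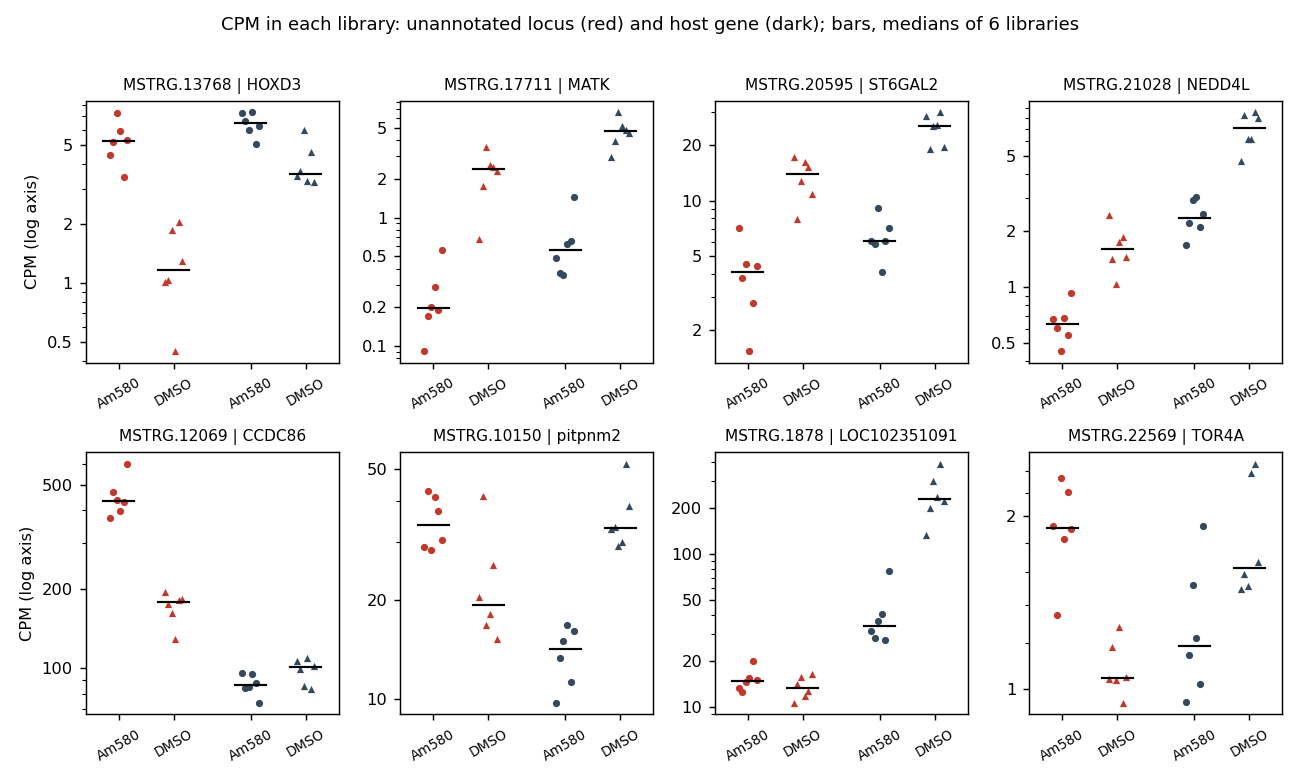
CPM in each of 6 Am580 libraries (circles) and 6 DMSO libraries (triangles) on a log axis, for 8 unannotated loci (red, left of each panel) and their hosts (dark, right of each panel), with bars at the medians. Locus and host move together at MATK, ST6GAL2 and NEDD4L, while the locus alone shifts at CCDC86 and the host alone at LOC102351091.

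To compare locus and host directly, the log2 ratio of their CPM was formed in each library and compared between treatments with limma, with p-values adjusted over 4577 pairs of an unannotated locus and a reference gene. The ratio changed in 13 of the 158 pairs (8.23%, against 7.45% of all pairs), with the locus higher relative to its host in 9 and lower in 4. At an unadjusted p under 0.05 there were 32 (20.3%, against 18.5% of all pairs). Among the 13, the host alone was called by edgeR in 5 pairs, the locus alone in 5, both in 2 and neither in 1. By arrangement, 6 of 25 staggered pairs were called, 6 of 122 with the locus inside and 1 of 11 with the host inside, and this difference was not tested. Of the staggered pairs called, those at CCDC86, zgc:153867, LOC102351091 and FBF1 have only 1 very short host exon within the locus span, as given above. With either Am580 replicate 4 or DMSO replicate 2 left out, 8 pairs were called.

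The largest rise of a locus relative to its host was at LOC102351091, whose 34 exons as assembled end inside the span of the 19-exon locus MSTRG.1878 (AMEXG_0030000330:31640-582068, minus strand). Only the last host exon, from 883.781 to 883.796 kb from the host's start, lies within that span. The locus begins at 841.378 kb, and the host exon before its start ends at 770.222 kb. The host had 27.4 to 77 CPM with Am580 (median 33.9) and 134 to 389 CPM with DMSO (median 229). Its 77 CPM were in Am580 replicate 6, against at most 40.9 CPM in the other Am580 libraries. That library had the highest macrophage and osteoclast marker sum with Am580, 816 CPM. The part of these cells in the host's fall was not tested. The locus had 12.4 to 19.8 CPM with Am580 (median 14.8) and 10.7 to 16.4 CPM with DMSO (median 13.3), with overlap. The host fell by 2.62 on the log2 scale (SE 0.31, edgeR adjusted p = 7.46e-05), the locus had a log2 fold change of 0.16 ± 0.13 (edgeR adjusted p = 0.527), and the ratio changed by 2.80 ± 0.29 (limma, adjusted p = 4.46e-05).

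The ratio also rose in pitpnm2, a membrane-associated phosphatidylinositol transfer protein. MSTRG.10150 (AMEXG_0030002398:5542776-5543737, minus strand) is a single exon in intron 3, which is 304 kb long, and stood at 10.8 times the host's level per kb. The locus had 28.4 to 42.8 CPM with Am580 (median 33.9) and 15.3 to 41.3 CPM with DMSO (median 19.3), where DMSO replicate 2 was the high one. The host pitpnm2 had 9.79 to 16.8 CPM with Am580 (median 14.2) and 29.1 to 51.7 CPM with DMSO (median 33.0), without overlap. The host fell by 1.39 on the log2 scale (SE 0.17, edgeR adjusted p = 0.0001), the locus had 0.61 ± 0.23 (edgeR adjusted p = 0.101, 0.00345 at a log2 fold change of 0.87 without DMSO replicate 2, and 0.0485 with limma-voom), and the ratio changed by 2.05 ± 0.25 (limma, adjusted p = 0.000166).

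CCDC86, a nucleolar coiled-coil protein, hosts the locus with the highest level of all 236. MSTRG.12069 (AMEXG_0030002997:3794182-4053150, plus strand) starts upstream of CCDC86 as assembled, ends inside it and has 8 exons with 15802 bases in all. The only host exon that it passes ends 0.001 kb from the host's start. It had 374 to 600 CPM with Am580 (median 435) and 130 to 196 CPM with DMSO (median 179), without overlap, and a log2 fold change of 1.40 ± 0.13 (edgeR adjusted p = 9.85e-06). CCDC86 had 74.1 to 95.7 CPM with Am580 (median 86.5) and 83.5 to 110 CPM with DMSO (median 101), and its change of -0.17 ± 0.09 was not called (edgeR adjusted p = 0.269). The ratio changed by 1.56 ± 0.19 (limma, adjusted p = 0.00015).

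TOR4A, a member of the torsin family of ATPases, lies within the span of MSTRG.22569 (AMEXG_0030009846:274420-573894, plus strand). The locus had 1.34 to 2.33 CPM with Am580 (median 1.91) and 0.945 to 1.28 CPM with DMSO (median 1.04), without overlap. TOR4A had 0.946 to 1.92 CPM with Am580 (median 1.19) and 1.49 to 2.47 CPM with DMSO (median 1.63), with overlap. The locus rose by 0.82 ± 0.15 on the log2 scale (edgeR adjusted p = 0.00284), TOR4A had -0.51 ± 0.21 (edgeR adjusted p = 0.142), and the ratio changed by 1.28 ± 0.23 (limma, adjusted p = 0.00297).

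MSTRG.18001, 4 exons around an exon of the unnamed host MSTRG.18000, fell relative to that host. It had 0.946 to 8.54 CPM with Am580 (median 1.29) and 24.4 to 39.2 CPM with DMSO (median 31.0), without overlap, although Am580 replicate 6 stood apart at 8.54 CPM. That library also had the highest macrophage and osteoclast marker sum of the 6, at 816 CPM, and its part in this value was not tested. The host had 0.305 to 2.12 CPM with Am580 (median 0.772) and 0.276 to 9.54 CPM with DMSO (median 1.05). The locus fell by 3.66 on the log2 scale (SE 0.54, edgeR adjusted p = 0.000507), and without Am580 replicate 6 by 4.64. The host had a log2 fold change of -1.28 ± 0.76 (edgeR adjusted p = 0.33), which was 0.07 without DMSO replicate 1. That library had the highest epidermis and muscle marker sums with DMSO, at 116 and 8789 CPM, and their part in this value was not tested. The ratio fell by 3.52 (SE 0.67; limma, adjusted p = 0.00484).

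Smaller shifts without a called host were found at 2 more named pairs. MSTRG.1081, 8 exons that begin upstream of zgc:153867, had 26.0 to 35.7 CPM with Am580 (median 31.1) and 13.5 to 21.2 CPM with DMSO (median 16.9), a log2 fold change of 0.86 ± 0.12 (edgeR adjusted p = 0.000255). MSTRG.9444 runs past the end, as assembled, of FBF1, a protein of centriole appendages. The locus had 8.76 to 10.95 CPM with Am580 (median 9.49) and 11.3 to 15.0 CPM with DMSO (median 14.1). Its log2 fold change was -0.50 ± 0.09 (edgeR adjusted p = 0.00155), and FBF1 had -0.01 ± 0.10. The ratio changed by 0.69 ± 0.16 at zgc:153867 (limma, adjusted p = 0.0185) and by -0.50 ± 0.14 at FBF1 (limma, adjusted p = 0.0491), the second of which was lost in 13 of 21 alternatives.

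MSTRG.21023 lies in what the assembly gives as intron 1 of LOC106675560 and stood 12.9 times above it per kb. It had 118 to 201 CPM with Am580 (median 149) and 109 to 172 CPM with DMSO (median 125). The host had 15.5 to 44.6 CPM with Am580 (median 17.2) and 32.2 to 49.7 CPM with DMSO (median 41.1). The ratio changed by 1.17 ± 0.33 (limma, adjusted p = 0.0495), a call lost in 11 of 21 alternatives. In MSTRG.7261 the ratio changed by -0.84 ± 0.22 (limma, adjusted p = 0.032), a call lost in 9 of 20 alternatives. It changed by -2.10 with a prior count of 0.5 (still called) and by 0.11 with one of 5 (not called). The remaining 3 of the 13 pairs, named after their values were seen, were MSTRG.15555 (host cytochrome, -0.79), MSTRG.6731 (host KBTBD4, an adaptor of a ubiquitin ligase, 0.50) and MSTRG.8936 (host LOC102336935, 0.90).

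**Figure D5:**
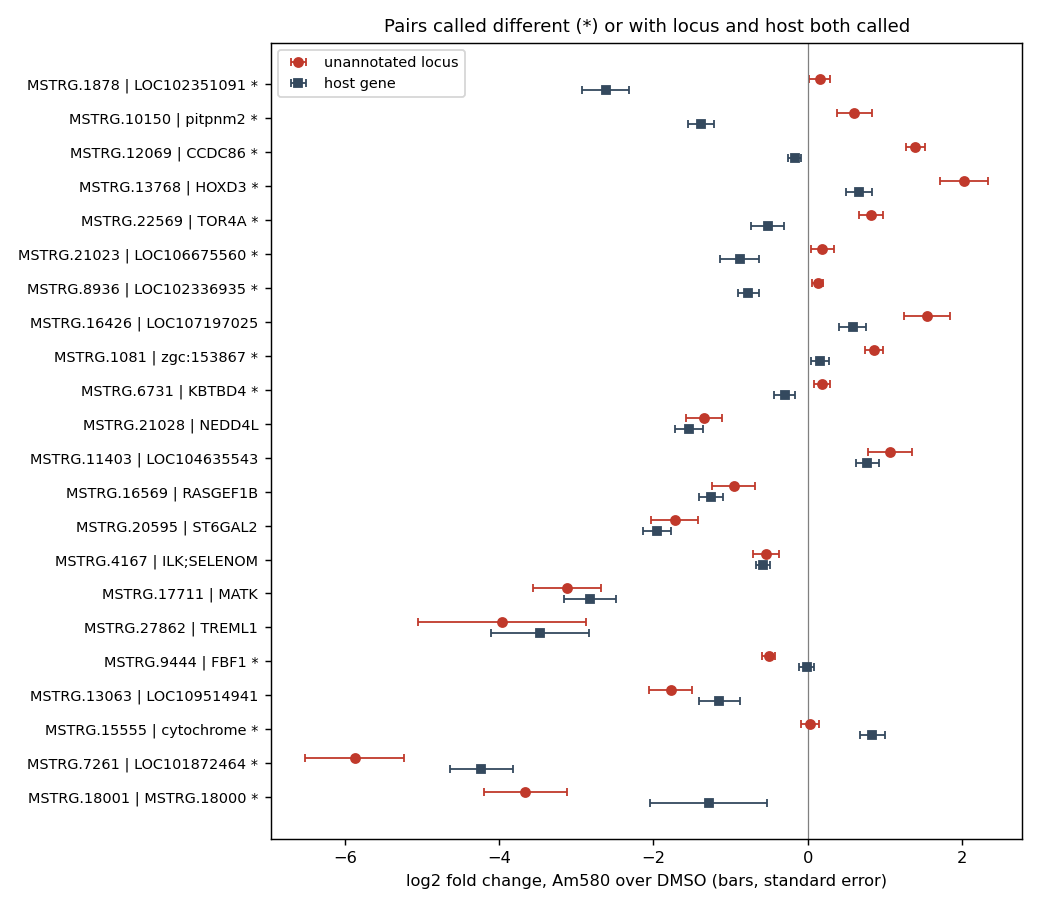
Log2 fold change (Am580 over DMSO) with standard error for the unannotated locus (red circles) and the host (dark squares) in 22 pairs, sorted by the change of their ratio. Asterisks mark the 13 pairs called different. In the 11 pairs with both called, locus and host lie on the same side of 0.

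The host with the most loci is one of 3 hosts with 3 loci each. MSTRG.17651 is named reverse in the assembly, as retroelement genes are for their reverse transcriptase. It has the single-exon loci MSTRG.17655, MSTRG.17656 and MSTRG.17657 in what the assembly gives as introns 8, 9 and 9. They share a host and a stretch of scaffold and are not independent. MSTRG.17657 had 5.72 to 9.06 CPM with Am580 (median 6.50) and 3.11 to 7.04 CPM with DMSO (median 4.37), with overlap, and was called at a log2 fold change of 0.60 ± 0.18 (edgeR adjusted p = 0.0401), a call lost in 10 of the 12 left-out fits. The other two had log2 fold changes of 0.37 and 0.48, and the host 0.21, and none of these was called, although MSTRG.17656 was without Am580 replicate 1 (edgeR adjusted p = 0.035).

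Among loci with an untested host, 8 of 78 were called, 6 of which rose and 2 fell, and 5 did not overlap between treatments. Of all genes tested, 14.1% were called, 6.93% rose, 7.21% fell and 8.6% did not overlap. The 6 loci that rose did so by log2 fold changes of 0.64 to 1.64. The largest of these rises, MSTRG.4100 around LOC106705246, was named after its values were seen. So was MSTRG.19990 around GNAO1, the alpha subunit of a heterotrimeric G protein, which is 1 of the 2 loci that fell. Its log2 fold change was -0.44 (edgeR adjusted p = 0.00669). MSTRG.4100 had 1.57 to 4.40 CPM with Am580 (median 2.73) and 0.308 to 1.39 CPM with DMSO (median 0.891), while its host stayed at or below 0.17 CPM. MSTRG.19990 had 3.48 to 4.23 CPM with Am580 (median 3.88) and 4.74 to 6.02 CPM with DMSO (median 5.21), and GNAO1 itself was at or below 0.403 CPM in every library.

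In 20 pairs the host was called and the locus was not. The hosts had a median absolute log2 fold change of 0.85 and the loci one of 0.37, with the same sign in 13 of 20, and the ratio was called in 5. A locus in TNFRSF6B, a decoy receptor of the TNF receptor family, belongs here. MSTRG.12277 had a log2 fold change of -1.85 at a mean of 0.535 CPM (edgeR adjusted p = 0.103), and TNFRSF6B one of -2.72. By groups of host genes, 23 loci had a host in 1 of 9 symbol groups. Of these 23, 1 was called, that in HOXD3, against 14.1% of all genes tested. The 4 loci of developmental signalling hosts (AXIN2, EPHA8 and Sema7a), the 3 of extracellular matrix hosts (ADAM33 and COL5A2), the 6 of adhesion and cytoskeleton hosts, the 4 of channel and transporter hosts, the 2 in ELAVL1, an RNA-binding protein, and the 1 in NCOA6, a nuclear receptor coactivator, were not called.

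Set beside other unannotated loci, the ratio test called 26 of 811 antisense loci (3.21%) against the gene they overlap and 302 of 3608 loci that overlap no reference gene (8.37%) against the nearest gene. The log2 fold changes of locus and partner had an r of 0.71 and a rho of 0.59 for antisense loci and an r of 0.31 and a rho of 0.30 for loci without overlap, against 0.71 and 0.41 for the same-strand loci. The differences between these classes were not tested, and the classes differ in their distance from the partner gene. Overlapping loci without a strand were not paired and stand in none of these classes.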

How the data were processed

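Members and lists were chosen with earlier results of these data known. After trimming (Trimmomatic 0.36), the authors mapped reads with HISAT2 2.1.0 against AmexG_v3.0.0, built transcripts from both treatments and the reference gene set with StringTie 1.3.4d, and assigned reverse-stranded read pairs to the exons of each gene with featureCounts (Subread 1.6.2). The deposited count table holds whole, unnormalized counts of 36917 genes in 12 libraries (27226012 to 43793138 counts each). The deposited assembly holds another kind of value, 1-based start and end positions on AmexG_v3.0.0 scaffolds, and gave loci, exons and host names. The deposited abundance table was not used. The stated options leave reads that align to several places uncounted, which can lower loci in repeats.

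The gene test used edgeR 4.0.16 (R 4.3.3), the legacy quasi-likelihood F test, on genes that reached 10 counts in 6 or more libraries, with TMM factors and no covariates, Benjamini-Hochberg adjustment over all genes and a threshold of 0.05. Standard errors derive from the F statistic. The host is the same-strand reference gene with the largest overlap of spans. The log2 ratio of locus to partner CPM (prior count 2) was compared with limma 3.58.1, over every tested unannotated locus with a tested partner (the host, the overlapped antisense gene or the nearest gene). Its value differs from the difference of the 2 edgeR values, mostly for low genes. Correlations across pairs are descriptions.

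Loci named are the 6 with the highest mean CPM, the 8 called with the largest change and a host called in the same direction, the 6 called whose tested host was not called (both with no overlap between treatments and at least 0.5 CPM), the 6 with the largest called change of ratio (at least 0.5 CPM), the called locus of each host group with the smallest p, and the loci of the host with the most. Fewer loci met some parts of the rule than it allows. As alternatives, TMM was replaced by DESeq2's size factors, library size or upper-quartile factors, and the filter by none or by 10 counts in all 12 libraries, and results were recomputed with DESeq2 1.42.0, limma-voom, the replicate block, each library left out, another host choice, intronic loci alone, 1 locus per host, prior counts of 0.5 and 5, and edgeR with the host as offset. Both tests were also run on counts simulated from the means and dispersions of these data, with known changes. At a log2 change of 1 the gene test recovered 54 of 100 and the ratio test 13 of 50. At a log2 change of 2 they recovered 80 of 100 and 36 of 50. A ratio that was not called is therefore no sign of equal change. Nothing says that libraries sharing a replicate number came from the same animals. No genome of this build was used, so no sequences are shown. A RefSeq gene table of another assembly (UKY_AmexF1_1) was used for names alone, and 99 of 220 hosts carry a symbol found in it. Python 3.11.15, pandas 2.3.3 and matplotlib 3.10.9 made tables and plots.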

Additional observations from a re-analysis of the deposited data

Results flagged for a closer look

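Dixon's test was applied to log2 CPM in 80 groups of 6 libraries, over named loci and their hosts. In 5 of the 80 the highest or lowest library stood apart from the other 5, and chance flags about 1 in 20 such groups. Am580 replicate 6 was high in 3 of them: MSTRG.18001 at 8.54 CPM against 0.946 to 1.86 CPM in the other Am580 libraries, the host MSTRG.13064 (LOC109514941) at 18.3 CPM against 8.03 to 9.79 CPM, and the host MSTRG.21022 (LOC106675560) at 44.6 CPM against 15.5 to 19.8 CPM. Am580 replicate 1 was low for MSTRG.17655, at 0.671 CPM against 1.42 to 2.08 CPM. DMSO replicate 2 was low for MSTRG.13063, at 1.03 CPM against 1.88 to 2.36 CPM in the other DMSO libraries. The host MSTRG.18000 was not flagged on the log2 scale, although DMSO replicate 1 had 9.54 CPM against 0.276 to 1.42 CPM in the other DMSO libraries. Without Am580 replicate 6, 24 of the 236 loci were called, 22 of which are among the 28.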

How the results depend on the processing

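Of the loci, 21 to 30 were called with each library left out in turn, and 26 without those whose host has a retroelement's name, an alternative chosen after seeing the data. In the 12 left-out fits, 17 of the 28 were called every time. The number that rose was 23 with library size alone and 27 with DESeq2, which called 41 in all, against 15. The correlation of locus and host changes was 0.496 with at least 10 counts in all 12 libraries, 0.755 for intronic loci alone and 0.474 without the 4 largest changes, against 0.709. The share of called loci with a host of the same sign was 75 to 90% with a library left out. Pairs called were 8 to 13 with a library left out and 4 among intronic loci alone, which hold 5 of the 13, and 8 of the 13 were called in all 12 fits. The difference at MSTRG.7261 turned to 0.11 with a prior count of 5. For named loci and hosts, 755 log2 fold changes under an alternative had the same outcome, called or not called, as in the main fit. Another 32 lost a call and 8 gained one. Of their ratios 382 had the same outcome, 33 lost a call and 1 gained one, the loss at MSTRG.7261 with a prior count of 5 included. Values not called in the main fit are among the 755 and the 382, so neither number counts calls kept. LOC107197025 lost its call in 12 alternatives and LOC106675560 in 9, and HOXD3 in 1 (adjusted p = 0.0511, edgeR with the replicate block). Libraries with the same number did not deviate together (r from -0.17 to 0.23, and 1 of 6 Am580 libraries correlated best with its own number). With the replicate block 31 loci were called, 18 of which rose, and 13 pairs, and MSTRG.10150 (edgeR adjusted p = 0.0211) and MSTRG.18774 (0.0377) gained a call. The cause of the other shifts was not tested. Depth limits loci near the count minimum, where a library holds few counts.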
